A study of Mus musculus with 6 samples.

Results

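S100 proteins are small calcium-binding proteins that carry a pair of EF-hands, the helix-loop-helix fold that holds calcium, and most work as dimers that change shape when calcium binds and then attach to target proteins. Some act inside the cell on myosin, annexins or ion channels, and some are released and act as signals on receptors such as Tlr4 and RAGE. In skin, S100 staining is used to mark melanocytes, and several members serve as markers of melanocytic lesions. The family gene S100b is not among the members followed here and was not measured. Most mouse S100 genes lie in a cluster on chromosome 3.

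The family was followed in Melan-a cells, an immortal line of pigmented C57BL/6 mouse melanocytes that is grown with the phorbol ester TPA. Cells were transfected with siDicer, an siRNA against the microRNA-processing enzyme Dicer, or with the control siRNA siScr, at 50 pmol per well in both groups, and lysed 24 hours later. Each group had 3 mouse Clariom D arrays, and in each group these came from cells at passage 47, 54 and 56, so that every siDicer array had an siScr array of the same passage beside it. All 6 arrays stem from a single cell line, and siRNA acts transiently. Dicer1 was not analysed here, so the knockdown was not checked and the groups rest on their labels. Of 10 listed members, 9 had a probe set annotated with 1 gene symbol, out of 7530 such probe sets among 16383 in all. These were S100a1, S100a3, S100a4, S100a6, S100a8, S100a9, S100a10, S100a13 and S100a16, each with 1 probe set. S100a11 has no value here, because its probe set also carried the symbols of other genes.

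The values are log2 signals on which 1 unit is a doubling, and the medians of the 6 arrays lay between 4.58 and 4.64. Arrays of the siDicer and siScr groups correlated with r from 0.994 to 0.997 over all probe sets. Of 26 listed melanocyte markers 6 were measured. These 6 lay above the background gauge described below, among them the melanin enzyme Tyrp1 at a mean log2 signal of 12.8. The others, such as Tyr, Dct, Pmel and Mitf, had no probe set with 1 symbol here. By their probe set names, the measured genes of this and every other list lie on chromosomes 1 to 4. Shares and adjusted p therefore refer to the 16383 probe sets of this table, which may not cover the genome. RNA integrity numbers were 9.7 and 9.8 for the passage 54 arrays and 10 for the other 4.

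Promoter windows from RefSeq (GRCm38.p6, 250 bases before to 50 after the annotated start) were found for 9 of the 10 listed members, S100a10 being the one without an entry. The shares of matches given below are per window. S100a3 and S100a16 had more than 1 each, so these members had 13 windows in all. The first shown is that of S100a4, the sole member past the threshold between siDicer and siScr, at chr3:90603520-90603819 on the + strand, with a TATAAA match in capitals. The second is that of S100a6, the member whose signal differed most between passages, at chr3:90612644-90612943 on the + strand, with a CACGTG match in capitals. The third is that of S100a13 at chr3:90514185-90514484 on the + strand, where capitals mark the 204 bases it shares with the window of S100a1, which is read from the opposite strand. The starts used for the windows of S100a1 and S100a13 lie 105 bases apart and point away from each other. In RefSeq the full extents of these genes overlap by 98 bases, so these starts need not be the outermost annotated ones.
S100a4: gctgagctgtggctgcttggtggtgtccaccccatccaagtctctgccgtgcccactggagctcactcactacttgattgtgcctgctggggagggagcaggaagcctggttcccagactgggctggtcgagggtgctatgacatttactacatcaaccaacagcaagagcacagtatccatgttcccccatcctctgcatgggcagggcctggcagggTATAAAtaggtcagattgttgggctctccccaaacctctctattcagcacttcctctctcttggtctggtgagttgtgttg
S100a6: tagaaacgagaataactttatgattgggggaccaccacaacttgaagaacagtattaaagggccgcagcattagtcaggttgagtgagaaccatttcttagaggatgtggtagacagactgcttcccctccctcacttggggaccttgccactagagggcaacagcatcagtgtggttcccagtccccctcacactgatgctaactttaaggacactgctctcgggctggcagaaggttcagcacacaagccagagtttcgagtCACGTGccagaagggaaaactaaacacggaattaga
S100a13: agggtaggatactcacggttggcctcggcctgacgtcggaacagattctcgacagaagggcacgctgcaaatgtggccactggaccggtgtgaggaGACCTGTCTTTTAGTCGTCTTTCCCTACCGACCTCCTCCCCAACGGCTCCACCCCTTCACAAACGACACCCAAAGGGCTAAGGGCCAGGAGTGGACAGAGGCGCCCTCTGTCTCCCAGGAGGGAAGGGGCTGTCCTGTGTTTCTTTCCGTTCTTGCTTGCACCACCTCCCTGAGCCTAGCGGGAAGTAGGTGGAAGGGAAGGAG
Letters were searched on both strands: TATAAA for the TATA box, CACGTG for the canonical E-box and GGGCGG for the GC box. CATGTG was used for the M-box core bound by melanocyte factors. TGANTCA, with any base at N, was used as a loose form of the AP-1 site. The AP-1 site answers to phorbol esters, and whether each loose match does was not tested. S100a4 and S100a6 held 1 match each, and none was found in the windows of S100a13 and S100a1. Elsewhere in the family, the TATA box letters began 30 bases before the start in S100a8 and 52 bases before it in 1 window of S100a3. In S100a9 they began at the annotated start itself. The loose AP-1 letters were found as TGAGTCA in S100a11 and as TGAATCA in 1 window of S100a16. Those of the M-box core were found in S100a8, 1 window of S100a3 and 1 of S100a16. The canonical E-box letters were also found in S100a11, and those of the GC box in S100a9, S100a11, 1 window of S100a3 and 1 of S100a16. Among 32851 RefSeq windows of the same length, the TATA box letters were present in 13.6% and the loose AP-1 letters in 7.81%. The M-box core letters were present in 14.15%, those of the canonical E-box in 7.15% and those of the GC box in 35.7%.

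The array has no detection calls, so olfactory receptor genes, which are mostly silent outside the olfactory epithelium, served as a gauge of background. Among the 331 genes of this class the middle one had a mean signal of 2.73. Their 95th percentile, 4.20, was exceeded by 58.3% of all probe sets. Of the 9 members, 8 lay above it. S100a8, one subunit of the calprotectin dimer of neutrophils and monocytes, did not: it was at 3.01, 2.94 and 3.24 in siDicer cells of passages 47, 54 and 56, against 2.81, 2.90 and 3.17 in siScr cells. Its partner S100a9 was at the edge, at 4.29, 4.40 and 4.14 in siDicer cells against 4.28, 4.56 and 4.15 in siScr cells, and it fell under the gauge of its own array in siScr cells of passage 56. S100a1, S100a3, S100a4, S100a6, S100a10, S100a13 and S100a16 lay above the gauge in all 6 arrays. Signals of different probe sets are not ranked against each other, since each probe set binds with its own strength.

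**Figure D1:**
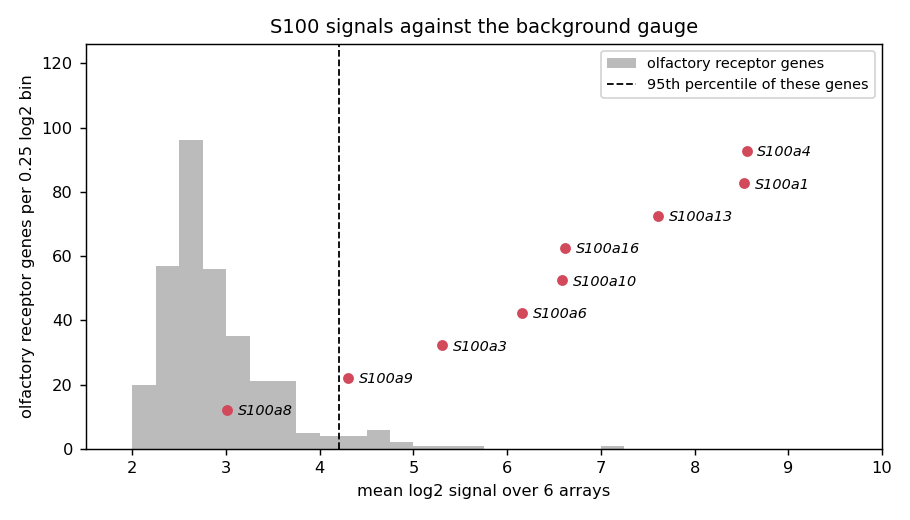
Mean log2 signal over the 6 arrays of each S100 gene (red points, height only separates the labels) over a histogram of olfactory receptor genes (grey, genes per bin). The dashed line is their 95th percentile of 4.20; S100a8 lies left of it, S100a9 just right of it, and the other 7 members beyond.

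S100a4 rose after siDicer. This protein, also called metastasin or fibroblast-specific protein, binds non-muscle myosin and is known for its part in cell motility. Its log2 signal was 8.42, 9.16 and 8.65 in siDicer cells of passages 47, 54 and 56, against 8.06, 8.77 and 8.26 in siScr cells. The siDicer array was the higher of its pair at every passage, by 0.37, 0.40 and 0.39, while the groups as a whole overlapped because the passages differed more than the siRNAs did. Group means were 8.75 ± 0.38 in siDicer and 8.36 ± 0.37 in siScr (SD, n = 3 each). In the limma fit with replicate number as a block the difference was 0.38 (95% interval 0.26 to 0.51), a 1.30-fold rise, with an adjusted p of 0.0430 across the whole table. It was the single member called, 1 of 9, where 0.995% of all probe sets were called in either direction and 0.757% upward.

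That call rests on the pairing by passage. Without the block the adjusted p of S100a4 was 0.599, with an interval from -0.11 to 0.88 around the same difference. In the paired fit it was 0.0598 after quantile normalization and 0.0561 after cyclic loess. Leaving out the pair of passage 47, 54 or 56 gave adjusted p of 0.0689, 0.203 and 0.185, with differences from 0.38 to 0.39. With passage 54 or 56 left out, 0 probe sets of the whole table passed. In the paired limma fit S100a4 did pass with a variance trend or array weights (adjusted p = 0.0177 and 0.0421). It also passed among only the probe sets above the gauge or with 1 symbol (adjusted p = 0.0256 and 0.0104).

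S100a10 had the next largest difference. Known as p11, it has EF-hands that no longer bind calcium and works as the partner of annexin A2 at the plasma membrane, where the complex binds plasminogen. Its signal was 6.47, 6.93 and 6.80 in siDicer cells of passages 47, 54 and 56, against 6.25, 6.58 and 6.45 in siScr cells. The siDicer array was higher in every pair, by 0.22, 0.35 and 0.35. The groups overlapped only in that the passage 47 siDicer array lay below the passage 54 siScr array. The paired difference was 0.31 (0.17 to 0.45, limma) and did not pass over all probe sets, with an adjusted p of 0.0822. It passed when only probe sets above the background gauge were tested (adjusted p = 0.04995) or only those with 1 symbol (adjusted p = 0.0277), and not without the block (adjusted p = 0.469).

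S100a1 and S100a13, whose starts in the windows above face away from each other, were each higher in siDicer at every passage and most so at passage 47. S100a1 is a calcium sensor of heart and skeletal muscle that acts on ryanodine receptors, and S100a13 takes part in the release of FGF1 and interleukin 1 alpha by a route without a signal peptide. S100a1 was at 8.81, 8.49 and 8.53 in siDicer cells of passages 47, 54 and 56, against 8.47, 8.44 and 8.42 in siScr cells. It was the one member whose groups did not overlap, 1 of 9 upward, where 7.57% of all probe sets had siDicer wholly above siScr. Its pair differences were 0.33, 0.05 and 0.11, and the paired difference of 0.16 (-0.01 to 0.34) had an adjusted p of 0.337 in limma. S100a13 was at 7.88, 7.71 and 7.55 in siDicer cells, against 7.42, 7.63 and 7.47 in siScr cells. Its pair differences were 0.46, 0.08 and 0.08, and the paired difference of 0.21 (-0.01 to 0.42) had an adjusted p of 0.335. Neither gene passed with or without the block, and for both the siDicer array of passage 47 was the highest of the 6. Over the 6 arrays their signals correlated with r of 0.77, a description over arrays that share passages.

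**Figure D2:**
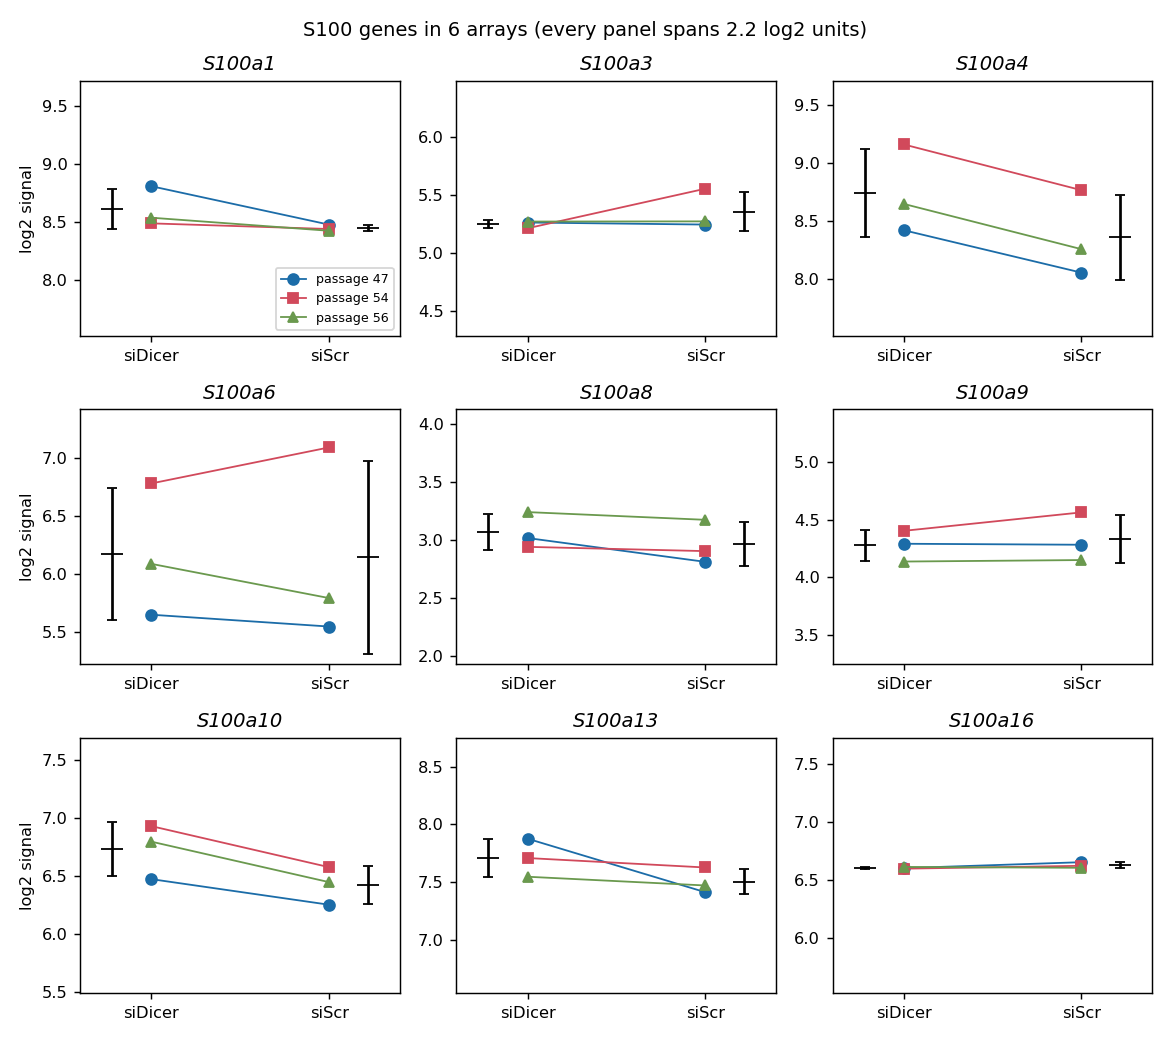
Log2 signal of each S100 gene in siDicer (left) and siScr (right) arrays, with lines joining arrays of the same passage; the dash and bar beside each group are its mean and SD (n = 3). The 3 lines of S100a4 run parallel, with siDicer above siScr by 0.37 to 0.40, while S100a16 is flat and S100a6 is spread by passage.

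S100a6, or calcyclin, is induced in proliferating cells and binds the ubiquitin ligase adaptor Cacybp. It was at 5.65, 6.78 and 6.09 in siDicer cells of passages 47, 54 and 56, against 5.55, 7.09 and 5.79 in siScr cells. The siDicer array was higher at passages 47 and 56 and lower at passage 54, with differences of 0.10, -0.31 and 0.30. The paired difference of 0.03 had an interval of -0.25 to 0.30 (limma, adjusted p = 0.927). Without the block the interval was -0.89 to 0.95, and leaving out single arrays there gave differences from -0.28 to 0.50.

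S100a3, a cysteine-rich zinc-binding protein of the hair cuticle, was at 5.26, 5.21 and 5.27 in siDicer cells, against 5.24, 5.55 and 5.27 in siScr cells. Only the siScr array of passage 54 stood apart, and the paired difference of -0.11 (-0.31 to 0.09) had an adjusted p of 0.572. S100a16, a widely expressed member, had the smallest spread of the 9. It lay between 6.60 and 6.61 in siDicer arrays and between 6.60 and 6.65 in siScr arrays, and its difference of -0.02 (-0.15 to 0.11) had an adjusted p of 0.865.

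The calprotectin subunits, which are released by myeloid cells and signal through Tlr4, did not pass. S100a8 had a difference of 0.10 (-0.04 to 0.25, adjusted p = 0.458) at signals within the range of olfactory receptor genes. S100a9 had one of -0.05 (-0.20 to 0.09, adjusted p = 0.698). Of 28 listed myeloid markers 14 were measured, with 8 above the gauge (58.3% of all probe sets). In limma 0 passed and 5 had an unadjusted p under 0.05, beside 0.995% and 15.7% of all probe sets. Those with the smallest p were the Fc receptor chain Fcer1g and the complement genes C1qa and C1qb, with differences of -0.25, -0.29 and -0.20. The common leukocyte marker Ptprc was below the gauge. The summed signal of the list was 8.23 to 8.30 in siDicer arrays and 8.39 to 8.41 in siScr arrays on the log2 scale. Its single signals lay between 2.83 and 5.43 in siDicer arrays and between 2.83 and 5.54 in siScr arrays. With signals this close to the gauge of 4.20, the sum may be largely background. The part of myeloid RNA in the S100a8 and S100a9 signals was not tested.

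**Figure D3:**
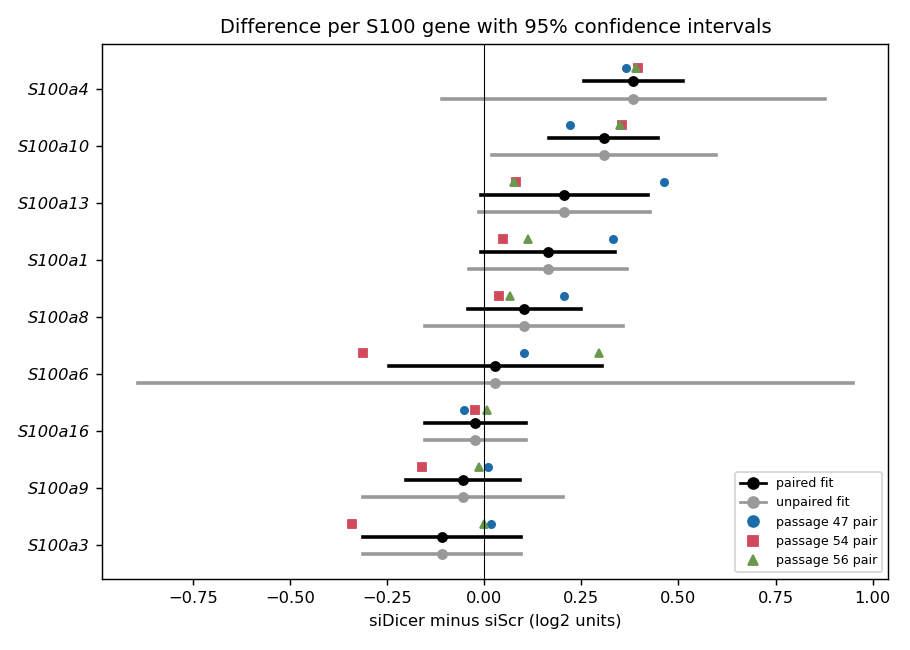
Difference siDicer minus siScr in log2 units for each S100 gene, with 95% confidence intervals from limma in the paired fit (black) and the unpaired fit (grey), and the 3 single pair differences (coloured marks). The paired intervals of S100a4 and S100a10 lie above 0, and for S100a4 and S100a6 the unpaired interval is much wider than the paired one.

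Over the family, 1 member rose, 0 fell and 8 did not pass in the paired fit, and 2 had an unadjusted p under 0.05 (15.7% of all probe sets). Without the block 0 passed, and 1, S100a10, had an unadjusted p under 0.05 in limma (10.2% of all probe sets). The siDicer array was the higher at every passage for 5 members, S100a1, S100a4, S100a8, S100a10 and S100a13, where 17.9% of all probe sets were. No member was lower at every passage, where 22.6% of probe sets were. The median difference of the 9 was 0.10, beside -0.01 over all probe sets, and all 9 lay under 0.5 log2 units in size, as did 99.4% of probe sets. These counts describe the list and were not tested as a set.

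For several members the range over passages was larger than the difference between siRNAs. A range and a difference of group means are unlike measures, and the share of all probe sets with this pattern was not counted. Averaged over the siDicer and siScr array of a passage, S100a6 was at 5.60, 6.94 and 5.94 at passages 47, 54 and 56, a range of 1.34 log2 units. Among the 9547 probe sets above the gauge, whose median range was 0.15, that range exceeded 99.7%. S100a4 followed with 8.24, 8.97 and 8.46, a range of 0.73 that exceeded 99.1% of them. S100a10 was at 6.36, 6.75 and 6.62, with a range of 0.39. At the other end, the range of 0.02 of S100a16 exceeded only 1.19%.

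For 3 members, S100a4, S100a6 and S100a9, both passage 54 arrays lay above the other 4, as they did for 8.66% of all probe sets. Both passage 47 arrays lay below the others for S100a6 (8.78% of probe sets), both passage 56 arrays below the others for S100a9 (7.94%), and both passage 56 arrays above them for S100a8 (5.45%). Each passage holds 1 culture per siRNA, so these are descriptions without a test. The passage 54 arrays also had the lower RNA integrity numbers given above, and passage and RNA integrity cannot be told apart here.

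**Figure D4:**
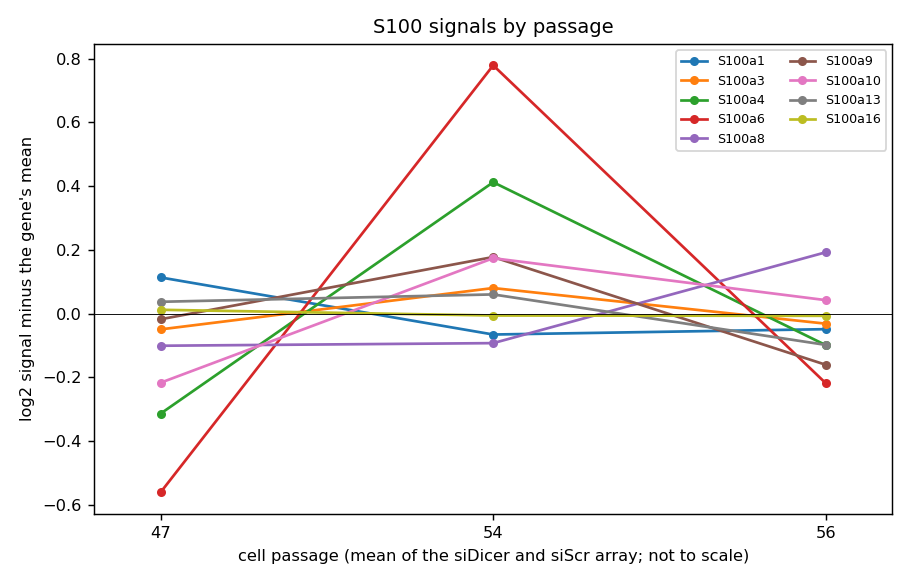
Log2 signal of each S100 gene at passages 47, 54 and 56 (mean of the siDicer and the siScr array), minus the gene's mean over the passages. S100a6 peaks at passage 54 with a range of 1.34 and S100a4 with 0.73, while S100a16 stays within 0.02.

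For S100a4, S100a1 and S100a13, taken by mean signal only to limit how many genes are named, the named gene with the most similar profile over the 6 arrays was found among 4875 candidates. For S100a4 it was Atp1b1, the beta subunit of the sodium pump, with a Pearson r of 0.996. It was at 7.54, 8.65 and 7.81 in siDicer cells of passages 47, 54 and 56, against 6.91, 8.16 and 7.20 in siScr cells, and so shared both the peak at passage 54 and the higher siDicer array in each pair. For S100a1 it was Entpd6, a nucleoside diphosphatase (r = 0.986), and for S100a13 it was Invs, the ciliary protein inversin (r = 0.974). With 6 arrays that share passages such values are easily reached: 64, 14 and 4 candidates had r above 0.95 with S100a4, S100a1 and S100a13. Among the members themselves S100a4 and S100a10 had the highest r, 0.92.

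In 3 lists of genes around the family 0 passed in limma, lists short enough that few calls would be found at the array-wide share of 0.995%. Of the first list, further S100 genes and the S100-binding protein gene S100pbp, 6 were measured, namely 5 S100 genes and S100pbp, and 0 had an unadjusted p under 0.05 (15.7% of all probe sets). S100a7a, an antimicrobial protein of skin, had a difference of -0.17, S100a14 one of -0.16 and S100pbp one of 0.11 (adjusted p = 0.359, 0.438 and 0.428). Fused-type S100 genes, in which an S100 domain precedes long repeats, had 0 of 7 past the threshold and 0 at an unadjusted p under 0.05 in limma, with 4 above the gauge. The barrier protein Flg differed by -0.10, Hrnr by -0.09 and Crnn by 0.14. Non-S100 genes beside the cluster had 0 of 32 past the threshold, and 6 had an unadjusted p under 0.05 in limma, beside the 15.7% of all probe sets. Their median difference was -0.00. The smallest p among them belonged to the chromatin protein Gatad2b, the transcription regulator Ilf2 and the natriuretic peptide receptor Npr1, with differences of 0.24, -0.21 and 0.17. In limma without the block no gene of these lists passed either.

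Of 41 reported partners and targets of S100 proteins 10 were measured. Of these 0 passed and 4 had an unadjusted p under 0.05 in limma, beside 0.995% and 15.7% of all probe sets. Tlr4, the receptor for released S100a8 and S100a9, came closest. It was at 8.45, 8.66 and 8.71 in siDicer cells of passages 47, 54 and 56, against 8.17, 8.36 and 8.25 in siScr cells. The groups did not overlap, and the difference of 0.35 had an adjusted p of 0.0695. Anxa9, an annexin, differed by 0.21 and the cytokine Il1a, whose signal was below the gauge, by -0.16. Of 25 measured genes for other EF-hand proteins 0 passed and 9 had an unadjusted p under 0.05 in limma, beside 0.995% and 15.7% of all probe sets, and their median was -0.03. The mitochondrial glycerol-3-phosphate dehydrogenase Gpd2 differed by 0.29, the calcium-regulated carrier Slc25a24 by -0.28 and the endocytic protein Eps15 by -0.25 (adjusted p = 0.0896, 0.0952 and 0.155).

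Markers of other cells that make S100 proteins were read beside the members. The arrays stem from a single cell line, so other cell types are no part of the design. Whether any were present was not tested. In bulk RNA, fewer cells of a type and less RNA per cell cannot be told apart. Fibroblasts express S100a4, and of 15 listed fibroblast markers 6 were measured, 5 of them above the gauge with Fap below it. The matrix protein Thbs1 rose by 0.56 log2 units in the paired fit (adjusted p = 0.0319), to 8.68, 9.23 and 8.70 in siDicer cells against 8.17, 8.76 and 7.99 in siScr cells. The other 5 did not pass: Postn and Col5a1 had differences of 0.25 and 0.19, and Col3a1, Fap and Col5a2 had differences of -0.00, -0.04 and -0.06. The summed signal of the list was 9.47 to 9.88 in siDicer arrays and 9.03 to 9.55 in siScr arrays. Thbs1, with the highest signal, carried most of that sum: without it, a sum taken after its values were seen, the ranges were 8.19 to 8.43 in siDicer and 8.07 to 8.30 in siScr. The part of fibroblast RNA in the rise of S100a4 was not tested. Keratinocyte cornification markers had 0 of 11 past the threshold and 4 at an unadjusted p under 0.05 in limma, beside 0.995% and 15.7% of all probe sets. Above the gauge were 4, beside 58.3% of all probe sets, with Ivl below it. Their summed signal was 7.75 to 7.80 in siDicer and 7.78 to 7.84 in siScr. Their single signals lay between 2.38 and 5.75 in siDicer and between 2.50 and 5.79 in siScr, so this sum too may be largely background. The 3 with the smallest p were Sprr4, Lce1a1 and Lce3a, with differences of -0.25, -0.16 and 0.31. Of 14 listed Schwann cell and glial markers 3 were measured, and S100b was not one of them. Cdh19 rose by 0.55 and Pmp2 fell by 0.95 in the paired limma fit (adjusted p = 0.0304 and 0.0209). The transcription factor Foxd3 differed by -0.04, and the list had a summed signal of 9.14 to 9.54 in siDicer and 9.23 to 9.60 in siScr. Of the melanocyte genes, Lef1 and Mreg rose by 0.52 and 0.62 (adjusted p = 0.0337 and 0.0435). The other 4 did not pass, with Mlph at -0.12, and the summed signal was 13.4 to 13.6 in both groups. Tyrp1 had the highest signal of that list, at a mean of 12.8, so the sum says little about the weaker genes. The calls in the fibroblast, glial and melanocyte lists stand beside 0.995% of all probe sets. Without the block none of the genes called in these lists passed, with adjusted p from 0.0877 for Mreg to 0.429 for Thbs1 in limma.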

How the data were processed

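The deposited table holds log2 signals per probe set, which per the submitters' processing notes the authors computed in Affymetrix Expression Console. Not given in the sources used here are its version, the background correction, the normalization and the genome build. The array quartiles are nearly equal, and a normalization that makes them so would mask a shift of most transcripts. Gene symbols came from the platform annotation, updated through Entrez numbers in RefSeq. Of the probe sets, 455 carried several symbols and 8398 none, and neither kind was named.

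All 16383 probe sets were fitted with limma 3.58.1 in R 4.3.3 (siDicer minus siScr, replicate number as a block, eBayes without trend), with Benjamini-Hochberg adjustment over all and a threshold of 0.05. Replicate numbers go with passage in the labels, and the deviations of same-numbered arrays from their group means had correlations of 0.44, 0.41 and 0.24. The submitters describe the arrays as biological replicates, and their number limits the precision.

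The members and lists were chosen with earlier results of these data known. Named genes are the members, the 3 genes of smallest p in each list, each listed gene past the threshold, and the most similar gene for 3 members. Tyrp1, Ptprc, Fap and Ivl were named after their values were seen. Summed signals are log2 of the summed linear signals. Alternatives were the fit without the block, 2 normalizations, a variance trend, array weights, 2 filters, other gauges and omitted replicates.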

Additional observations from a re-analysis of the deposited data

How the results depend on the processing

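The replicate block gave 163 probe sets past the threshold, and the fit with no replicate block 35. Quantile normalization gave 84, cyclic loess 93, a variance trend 302, only probe sets above the gauge 288 and only those with 1 symbol 281. Leaving out a replicate number gave 0 to 157. Members past the threshold numbered 1. There were 2 with either filter on probe sets, and 0 without the replicate block, after quantile normalization, after cyclic loess and with any replicate left out, with or without the block. For S100a4 the difference stayed above 0 in all 16 alternatives, from 0.18 to 0.59, and passed in 4. S100a1, S100a8, S100a10, S100a13 and S100a16 also kept their direction. Differences that did not pass and turned in sign were those of S100a3 (-0.171 to 0.00812 with a replicate number left out), S100a6 (-0.104 to 0.199 likewise) and, with single arrays left out and no replicate block, S100a6 (-0.276, -0.270 and -0.147) and S100a9 (0.0152 and 0.0605). Listed genes past the threshold numbered 6, and 0 without the replicate block. Members above the gauge numbered 7 to 8 over the gauges tried. Filters change how many probe sets are tested, and fewer arrays the samples; for the rest the cause was not tested. Each member had 1 probe set, so no other row could be tried.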
